A study of Homo sapiens with 6 samples.

Results

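The 10 genes of the LIN28 and let-7 axis were followed in H9 human embryonic stem cells on day 30 of their differentiation into arcuate neurons and on day 0, with 3 RNA libraries per day. The genes are LIN28A, LIN28B, the exonuclease gene DIS3L2, the let-7 host transcript MIRLET7BHG, and HMGA2, IGF2BP1, IGF2BP2, IGF2BP3, TRIM71 and ARID3B. They were chosen by symbol, and each matched 1 of the 61853 entries of the deposited count table. H9 is an established cell line, all libraries come from this 1 line, and the labels name no genetic change. Day 30 cells had been patterned with SHH, purmorphamine, LDN-193189 and SB431542, replated on day 12 and matured with B-27, DAPT and then BDNF. Day 0 cells were H9 before differentiation. The study concerns how the factors of pre-rRNA processing change between these states.

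LIN28A and LIN28B are RNA-binding proteins that hold the loop of let-7 precursors through a cold-shock domain and zinc knuckles. The precursor bound in this way is tailed with uridines by TUT4 or TUT7 and degraded by DIS3L2, so that mature let-7 stays low in pluripotent cells. Mature let-7 in turn pairs through its seed with the 3′ UTRs of LIN28A, LIN28B, HMGA2, IGF2BP1 to IGF2BP3, TRIM71 and ARID3B mRNAs and lowers their output. Each side of this loop represses the other, and the let-7 side is known to gain during neural differentiation.

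The mature sequences show what the members' mRNAs are read by. The 12 human hairpin genes of the family, all matched in the RefSeq table (GRCh38.p14), give 9 distinct 22-base 5p sequences that share 1 seed, GAGGUAG, which is in capitals below. The 2 let-7 products of MIRLET7BHG, let-7a and let-7b, come first, and let-7i, which differs from let-7a at 4 bases, is the most distant.
hsa-let-7a-5p: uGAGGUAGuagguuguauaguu
hsa-let-7b-5p: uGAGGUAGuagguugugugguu
hsa-let-7d-5p: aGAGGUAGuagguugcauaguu
hsa-let-7i-5p: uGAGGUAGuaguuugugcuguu
hsa-miR-98-5p: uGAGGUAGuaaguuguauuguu

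The loops between the arms are the part of the precursors that LIN28 is known to bind, and binding was not measured here. The letters GGAG, the motif of the LIN28 zinc knuckles, were searched on the transcribed strand only. They occurred in 9 of the 12 let-7 loops, against 8.12% of 739 human hairpins with both arms listed and 17.6% of 51 other hairpins with loops of 23 to 36 bases. The 739 include the let-7 hairpins with both arms listed. An excess of the LIN28 motif in loops known to be bound by LIN28 follows from the choice of hairpins. It is not a result of these data. The letters GGAG were not in the loops of MIRLET7A3, MIRLET7B and MIR98. MIRLET7A3 and MIRLET7B are the 2 let-7 hairpins inside MIRLET7BHG, shown here with 2 loops that hold the motif in capitals.
MIRLET7A3 loop: uggggcucugcccugcuaugggauaa
MIRLET7B loop: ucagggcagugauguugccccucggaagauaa
MIRLET7A2 loop: uagaauuacaucaagGGAGauaa
MIRLET7G loop: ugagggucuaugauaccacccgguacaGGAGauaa

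The 3′ UTRs of the members carry the complement of that seed. The letters CTACCTC (7 bases) were searched on the mRNA strand of the principal GENCODE 29 transcript of each gene, and CTACCTCA (8 bases) was counted among them. At least 1 match lay in the 3′ UTR of 8 of the 9 coding members, against 8.59% of the 3′ UTRs of 18930 coding genes. These 8 are the genes named above as known to pair with the let-7 seed. An excess over other 3′ UTRs, here and in the numbers of matches below, thus follows from the choice of genes. It is not a result of these data. The members' 3′ UTRs are long, and the share among 3′ UTRs of like length was 11.7% (IGF2BP2) to 30.2% (IGF2BP1) for the 8 genes. TRIM71 held 6 matches, 4 of them of 8 bases. LIN28B, HMGA2 and IGF2BP1 held 4 each, of which 2, 1 and 3 were of 8 bases. Of all 3′ UTRs, 0.0634% held 4 or more. Among 3′ UTRs of like length, 0.233% held as many as LIN28B, 0.0997% as many as HMGA2, 0.556% as many as IGF2BP1 and 0.128% as many as TRIM71. LIN28A, IGF2BP2, IGF2BP3 and ARID3B held 1 match each, and that of ARID3B was the 7-base form. No match was in the 567 bases of DIS3L2, a length at which 3.35% of 3′ UTRs hold one. The first site of each of 6 genes is shown with the match in capitals, in mRNA sense.
LIN28A site: cacagcctattgaaCTACCTCA
LIN28B site: cccggttgcaaagtCTACCTCA
HMGA2 site: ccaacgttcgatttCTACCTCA
IGF2BP3 site: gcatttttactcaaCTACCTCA
TRIM71 site: acattgcttaagtcCTACCTCA
ARID3B site: atttcaataaacctCTACCTCt

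In hg38 these sites are chr1:26427349-26427370 (LIN28A, plus strand), chr6:105078813-105078834 (LIN28B, plus), chr12:65963299-65963320 (HMGA2, plus), chr7:23311795-23311816 (IGF2BP3, minus), chr3:32891969-32891990 (TRIM71, plus) and chr15:74598102-74598123 (ARID3B, plus), each within 1 exon and in the 3′ UTR. The match begins 21 bases after the stop codon in HMGA2 and 44 bases after it in LIN28B. In TRIM71 the match shown begins at base 172, and the next, in the site at chr3:32892049-32892070, at base 252. These matches are a description of the annotated sequence, and binding was not measured.

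The libraries held 9688839, 12924842 and 5013643 counts in day 30 replicates 1 to 3 and 7758817, 7178453 and 8794008 counts in day 0 replicates 1 to 3. The labels give no separate cultures for the replicates, so p-values measure the spread between these libraries, which may be technical. All 8 listed neuronal markers were higher on day 30, where their summed level was 5664 to 7102 CPM (counts scaled to library size, per 1000000), against 166 to 199 CPM on day 0. All 7 pluripotency markers tested were lower on day 30, with sums of 17.7 to 24 CPM, against 3247 to 3824 CPM on day 0, and an eighth, UTF1, was at 0 in every day 30 library. Some of these markers passed the filter on low counts through 1 day alone, so their direction was in effect fixed in advance. Among them were POU5F1, NANOG and ZFP42, with at most 0.72 CPM on day 30, and ELAVL4, with at most 0.145 CPM on day 0. Day 30 replicate 3 stood apart. Its 8 mesenchymal markers (COL1A1, COL1A2, COL3A1, LUM, DCN, PDGFRB, TWIST1 and POSTN) summed to 4540 CPM, against 656 CPM in replicate 2 and 176 CPM in replicate 1 of day 30 and 227 to 340 CPM on day 0. TWIST1 did not follow the sum. It was at 0 in the other 2 day 30 libraries, but its 1.13 CPM in replicate 3 lay within its day 0 values of 0.765 to 6.52 CPM. The 5 of these markers that were tested gave 4 higher on day 30 and 0 lower, and their ranges on the 2 days overlapped. Beside these marker calls, 39.8% of all 18040 genes tested were higher on day 30 and 36.8% were lower. Without day 30 replicate 3, 8 members were lower and 1 higher, as with it. Some genes expressed in the hypothalamus and arcuate nucleus, though not only there, were looked at too. POMC had 1113 to 1771 CPM, ISL1 181 to 239 CPM and NKX2-1 43.5 to 57 CPM in the day 30 libraries. On day 0 these genes had at most 1.16, 0.382 and 0 CPM. AGRP and NPY, of another class of arcuate neuron, stayed under 1 CPM on both days.

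On day 30, 8 of the 9 tested members were lower, and DIS3L2 was higher. Over all 18040 genes tested with edgeR at an adjusted p of 0.05, 36.8% were lower on day 30, 39.8% were higher and 76.6% passed in either direction. CPM ranges of the 2 days did not overlap for all 9 tested members, against 79.5% of all genes tested, of which 38.2% were lower and 41.3% higher on day 30. The median log2 fold change of the 9 was -2.53, beside 0.08 over all genes, whose quartiles were -0.99 and 1.33. Each tested member had at least 32 counts in every library, so none passed the filter on low counts through 1 day alone. MIRLET7BHG, the member left, was too low to be tested.

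**Figure D1:**
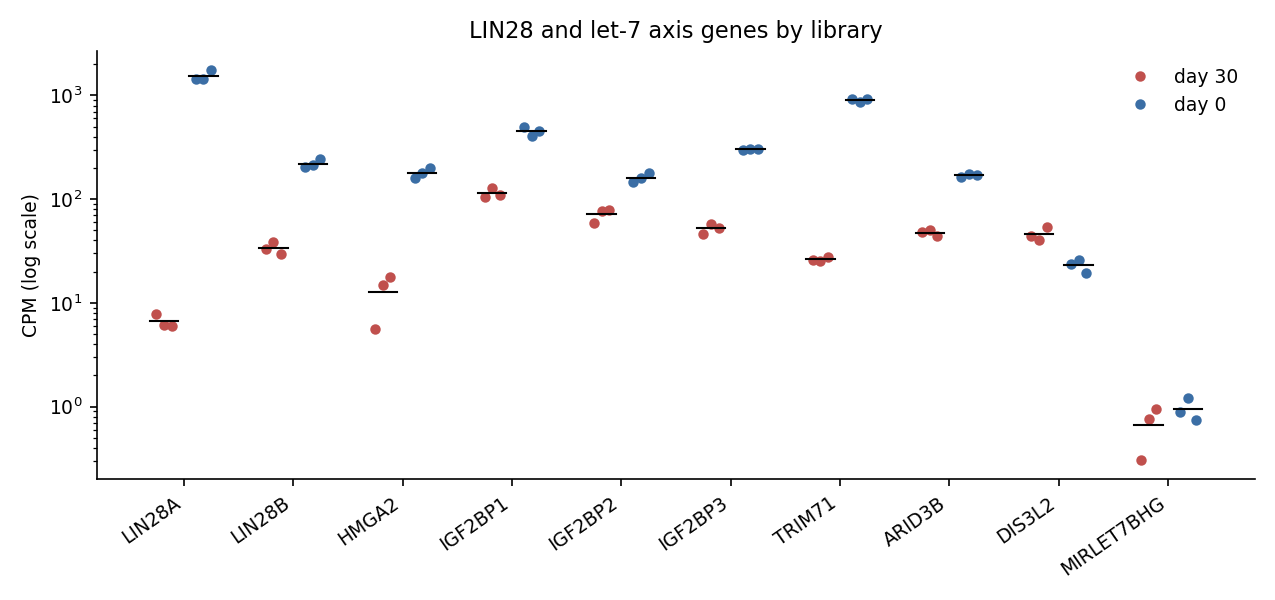
CPM of the 10 members in each library on a log scale, with day 30 points left of day 0 points for each gene and a bar at the mean of 3 libraries. LIN28A lies at 6.04 to 7.82 CPM in day 30 libraries and 1449 to 1751 CPM in day 0 libraries, DIS3L2 is the single tested member with day 30 above day 0, and the points of MIRLET7BHG overlap.

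LIN28A, the paralog that marks pluripotent cells, had the largest change of the members. It had 7.82, 6.19 and 6.04 CPM in day 30 replicates 1, 2 and 3, against 1449, 1455 and 1751 CPM in day 0 replicates 1, 2 and 3. The libraries of a day lay close together, and the days did not come near each other. The level was 230-fold lower on day 30 (log2 fold change -7.85 ± 0.18 SE, n = 3 libraries per day, edgeR adjusted p = 5.05e-10). Among all genes tested this log2 fold change ranked 128 from the lowest. In bulk RNA, fewer cells of a type and less RNA per cell cannot be told apart. The remaining day 30 signal rested on 190 counts in all, against 35620 counts on day 0.

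LIN28B, the second paralog, kept a larger part of its level. It had 33.2, 38.4 and 29.8 CPM in day 30 replicates 1, 2 and 3, against 204, 216 and 242 CPM in day 0 replicates 1, 2 and 3. The days did not overlap, and the spread within each was small, with coefficients of variation of 12.8% on day 30 and 8.73% on day 0. LIN28B was 6.48-fold lower on day 30 (log2 fold change -2.70 ± 0.13 SE, n = 3 per day, edgeR adjusted p = 1.8e-08). LIN28B-AS1, on the opposite strand, had counts equal to 1.42% of those of LIN28B, and whether the counting used strand is not known.

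The order of the paralogs turned round within each library. Counts of LIN28B per kb of exon over those of LIN28A were 2.82, 4.12 and 3.26 in day 30 replicates 1, 2 and 3, against 0.0939, 0.0992 and 0.0921 in day 0 replicates 1, 2 and 3. LIN28B was thus above LIN28A in every day 30 library and below it in every day 0 library. LIN28B made up 76.9% ± 3.3 of the summed level per kb of the pair on day 30 and 8.68% ± 0.31 on day 0 (SD, n = 3 each). The log2 ratio differed by 5.14 between day 30 and day 0 (exact permutation test, 2-sided p = 0.1, n = 3 per day), which is the smallest p that 3 libraries against 3 allow. The summed level of the pair was 7.3 ± 0.75 CPM per kb on day 30 and 424 ± 46 CPM per kb on day 0 (SD, n = 3 each).

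**Figure D2:**
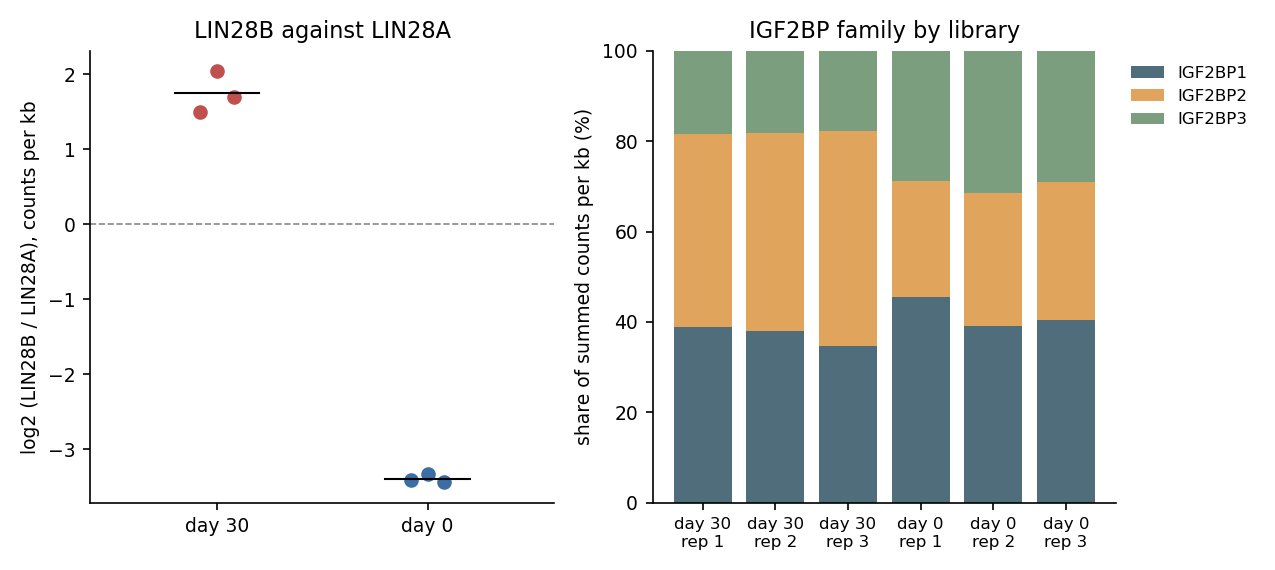
Left, the log2 ratio of LIN28B to LIN28A counts per kb of exon, 1 point per library and a bar at the mean of 3, with day 30 at 1.50 to 2.04 and day 0 at -3.44 to -3.33. Right, the share in percent of each IGF2BP gene in the summed counts per kb of the family, 1 stacked bar per library, in which the IGF2BP2 segment takes 42.6% to 47.5% on day 30 and 25.6% to 30.5% on day 0.

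DIS3L2, the exonuclease that degrades uridylated let-7 precursors, moved against the other tested members. It had 43.8, 40.5 and 53.7 CPM in day 30 replicates 1, 2 and 3, against 23.8, 26.2 and 19.3 CPM in day 0 replicates 1, 2 and 3. Every day 30 library was above every day 0 library. The level was 1.99-fold higher on day 30 (log2 fold change 0.99 ± 0.16 SE, n = 3 per day, edgeR adjusted p = 0.000184). A pseudogene on the same strand inside the gene, NRBF2P6, had counts equal to 4.46% of those of DIS3L2. Overlap was taken over whole gene spans. Whether the pseudogene reaches an exon of DIS3L2, and whether reads were shared, was not examined.

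MIRLET7BHG, the long non-coding transcript on chromosome 22 (46053869 to 46113928, hg38) that holds the hairpins of let-7a-3 and let-7b, was barely detected on either day. It had 0.309, 0.755 and 0.944 CPM in day 30 replicates 1, 2 and 3, against 0.892, 1.21 and 0.738 CPM in day 0 replicates 1, 2 and 3. The ranges overlapped, and the values rest on 18 counts on day 30 and 21.3 counts on day 0. The entry did not pass the filter on low counts. Fitted without that filter, its log2 fold change was -0.52 ± 0.61 SE (n = 3 per day, edgeR adjusted p = 0.504), and an exact permutation test of its CPM gave p = 0.5. A difference was not detectable at this depth.

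The let-7 hairpins themselves gave next to no counts, so the members' levels cannot be set beside mature let-7. The 12 hairpin entries together had 15.8, 24 and 13 counts in day 30 replicates 1, 2 and 3, against 22.3, 10.8 and 8 counts in day 0 replicates 1, 2 and 3. The sums overlapped (exact permutation test, 2-sided p = 0.5, n = 3 per day), and none of the 12 was tested with edgeR. These sums were not scaled to library size, which ran from 5013643 to 12924842 counts on day 30. The p-value thus mixes depth with level, and no conclusion on the level is drawn from it. MIRLET7A3 had 0 counts in all 6 libraries, and MIRLET7B had 0.33 counts in 1 day 0 library. Mature miRNAs were not analysed here.

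HMGA2, an architectural chromatin protein and a classic let-7 target, had the third lowest log2 fold change of the members. It had 5.56, 14.9 and 17.6 CPM in day 30 replicates 1, 2 and 3, against 159, 180 and 201 CPM in day 0 replicates 1, 2 and 3. The days did not overlap, but day 30 replicate 1 was well below the other 2 day 30 libraries. HMGA2 was 14.5-fold lower on day 30 (log2 fold change -3.86 ± 0.31 SE, n = 3 per day, edgeR adjusted p = 8.91e-07). Its coefficient of variation on day 30, 49.7%, was the highest of the members, and the others had 4.4% (TRIM71) to 48.7% (MIRLET7BHG, with few counts). Without day 30 replicate 1 the log2 fold change was -3.50, and without replicate 3 it was -4.08.

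TRIM71, the vertebrate LIN-41, is a ubiquitin ligase and mRNA repressor of early embryonic cells. It had 26.2, 25.5 and 27.7 CPM in day 30 replicates 1, 2 and 3, against 924, 866 and 930 CPM in day 0 replicates 1, 2 and 3. Within a day the libraries differed by little, and the days lay far apart. TRIM71 was 34.3-fold lower on day 30 (log2 fold change -5.10 ± 0.12 SE, n = 3 per day, edgeR adjusted p = 5.05e-10). It is the member with the most seed matches shown above and has the second lowest log2 fold change, but LIN28A, with 1 match, had the lowest, and the members are too few to relate matches to change.

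IGF2BP1, IGF2BP2 and IGF2BP3 are oncofetal RNA-binding proteins that stabilise and localise mRNAs. IGF2BP1 had 104, 129 and 110 CPM in day 30 replicates 1, 2 and 3, against 501, 405 and 458 CPM in day 0 replicates 1, 2 and 3. IGF2BP2 had 59, 77 and 78.3 CPM in day 30 replicates 1, 2 and 3, against 146, 159 and 179 CPM in day 0 replicates 1, 2 and 3. IGF2BP3 had 46.1, 57.9 and 52.8 CPM in day 30 replicates 1, 2 and 3, against 296, 306 and 306 CPM in day 0 replicates 1, 2 and 3. All 3 were lower in every day 30 library than in any day 0 library. IGF2BP3 was 5.78-fold lower (log2 fold change -2.53 ± 0.12 SE, edgeR adjusted p = 1.39e-08), IGF2BP1 3.97-fold lower (-1.99 ± 0.13, adjusted p = 1.75e-07) and IGF2BP2 2.26-fold lower (-1.18 ± 0.14, adjusted p = 1.66e-05), with n = 3 libraries per day. MALSU1, on the strand opposite to IGF2BP3 and overlapping it, had counts equal to 11.6% of those of IGF2BP3.

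The unequal changes altered the make-up of the family. IGF2BP2 took 44.6% ± 2.6 of the family's summed counts per kb on day 30 and 28.5% ± 2.6 on day 0 (SD, n = 3 each), a difference of 16.1 percentage points. IGF2BP3 took 18.2% ± 0.37 on day 30 and 29.8% ± 1.5 on day 0, a difference of -11.6 points. The shares of IGF2BP2 and IGF2BP3 did not overlap between the days. IGF2BP1 took 37.2% ± 2.2 on day 30 and 41.7% ± 3.4 on day 0, a difference of -4.48 points, and its day 30 shares came within 1 point of its lowest day 0 share. That difference was -2.55 points without day 0 replicate 1 and -1.34 points on counts not divided by length (exact permutation p = 0.7). Each of the 3 differences had an exact permutation p of 0.1, 2-sided, which stayed at 0.1 adjusted over the 3 shares.

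ARID3B, a DNA-binding protein with an AT-rich interaction domain, had 48.1, 50.7 and 44 CPM in day 30 replicates 1, 2 and 3, against 165, 175 and 171 CPM in day 0 replicates 1, 2 and 3. The libraries of a day lay close together, and the days did not overlap. ARID3B was 3.57-fold lower on day 30 (log2 fold change -1.84 ± 0.11 SE, n = 3 per day, edgeR adjusted p = 6.62e-08). The 5 members LIN28A, TRIM71, HMGA2, LIN28B and IGF2BP3 were lower by 4-fold or more, against 12.5% of all genes tested. IGF2BP1, at 3.97-fold, lay just under that bound, and ARID3B and IGF2BP2 were lower by less.

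**Figure D3:**
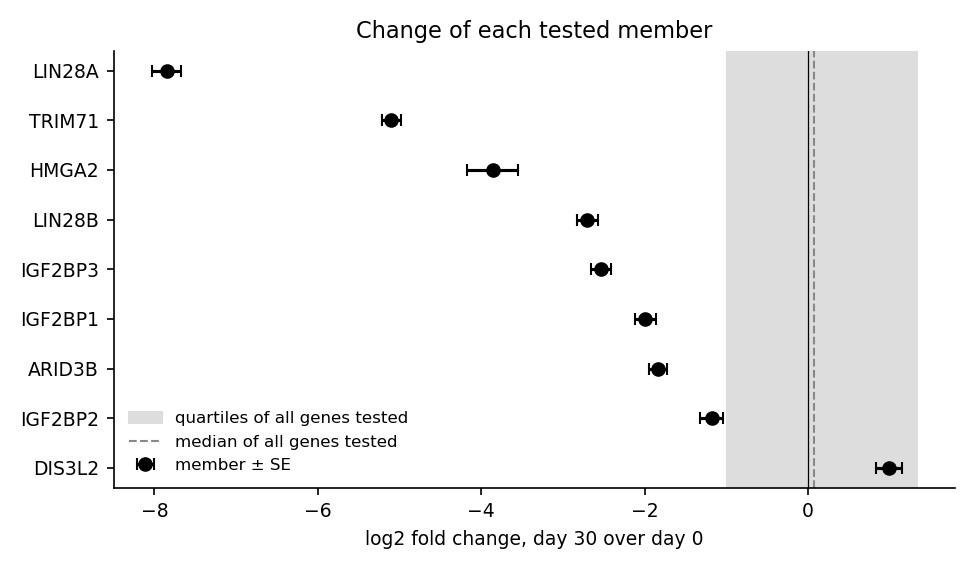
The log2 fold change of day 30 over day 0 for the 9 tested members, from edgeR, with bars of 1 SE (n = 3 libraries per day). Grey marks the quartiles of all 18040 genes, -0.99 to 1.33, and a dashed line their median of 0.08; the 8 lower members lie left of the grey band, and DIS3L2, at 0.99, lies inside it.

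Levels were put in order per kb of exon. The length was that of all annotated exons of a gene merged, which can exceed that of its mRNA. It was 15403 bases for HMGA2, 11337 for DIS3L2 and 4735 for IGF2BP2, and the order of genes depends on it. In CPM, not divided by length, HMGA2 averaged 12.7 and LIN28A 6.68 on day 30, and their ranges overlapped. On day 30, IGF2BP2 at 15.1 ± 2.28 CPM per kb and IGF2BP1 at 12.6 ± 1.48 CPM per kb had the highest levels (SD, n = 3), and their ranges overlapped. ARID3B followed at 7.66 ± 0.544 CPM per kb, then IGF2BP3 and LIN28B at 6.14 ± 0.697 and 5.64 ± 0.723 CPM per kb, whose ranges overlapped. DIS3L2 had 4.06 ± 0.606, TRIM71 3.05 ± 0.134, LIN28A 1.67 ± 0.246, HMGA2 0.822 ± 0.409 and MIRLET7BHG 0.117 ± 0.0569 CPM per kb, each apart from its neighbours. On day 0 the order was another one. LIN28A led at 387 ± 43.1 CPM per kb, before TRIM71 at 104 ± 4.08 and IGF2BP1 at 49.9 ± 5.3 CPM per kb. LIN28B, IGF2BP3 and IGF2BP2, at 36.7 ± 3.21, 35.6 ± 0.633 and 34.1 ± 3.52 CPM per kb, overlapped. ARID3B, HMGA2, DIS3L2 and MIRLET7BHG closed the day 0 order at 27.4 ± 0.81, 11.7 ± 1.36, 2.04 ± 0.31 and 0.165 ± 0.042 CPM per kb. The genes that headed the day 0 order, LIN28A and TRIM71, thus stood eighth and seventh on day 30, and DIS3L2, next to last on day 0, stood sixth.

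The day 30 libraries of HMGA2 and IGF2BP2 ran in the same order as the mesenchymal markers, lowest in replicate 1 and highest in replicate 3. That order held for 2 of the 9 tested members (22.2%) and for 22% of all genes tested, so it is not particular to the members. The 8 proliferation markers ran in that order too, with sums of 31.2, 48.1 and 79.4 CPM in day 30 replicates 1, 2 and 3, against 2251, 2369 and 2451 CPM in day 0 replicates 1, 2 and 3. The part of these markers in the spread of HMGA2 and IGF2BP2 was not tested. Without replicate 3 the log2 fold change of IGF2BP2 was -1.22, and without replicate 1 it was -1.07. The 8 endothelial markers summed to 6.23 to 11.5 CPM on day 30 and 474 to 535 CPM on day 0, mostly KDR and FLT1. Astroglial sums were 279 to 394 CPM in day 30 libraries and 711 to 1224 CPM in day 0 libraries. Of the 5 astroglial markers tested, 3 were lower on day 30, beside 36.8% of all genes tested. Among the 3 was GJA1, at 31.1 to 153 CPM on day 30 and 661 to 1165 CPM on day 0. AQP4, also among the 3, had at most 0.453 CPM on day 30 and passed the filter on low counts through day 0 alone. The other 2, SLC1A2 and SOX9, were higher on day 30, and SLC1A2, at 222 to 240 CPM on day 30 and 5.48 to 10.1 CPM on day 0, made up most of the day 30 sums. Oligodendroglial sums were 30.2 to 58 CPM in day 30 libraries and 136 to 187 CPM in day 0 libraries, with MOG at 0 throughout. Neural progenitor sums were 963 to 1165 CPM in day 30 libraries and 1501 to 2354 CPM in day 0 libraries, with HES5 at 0 throughout.

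**Figure D4:**
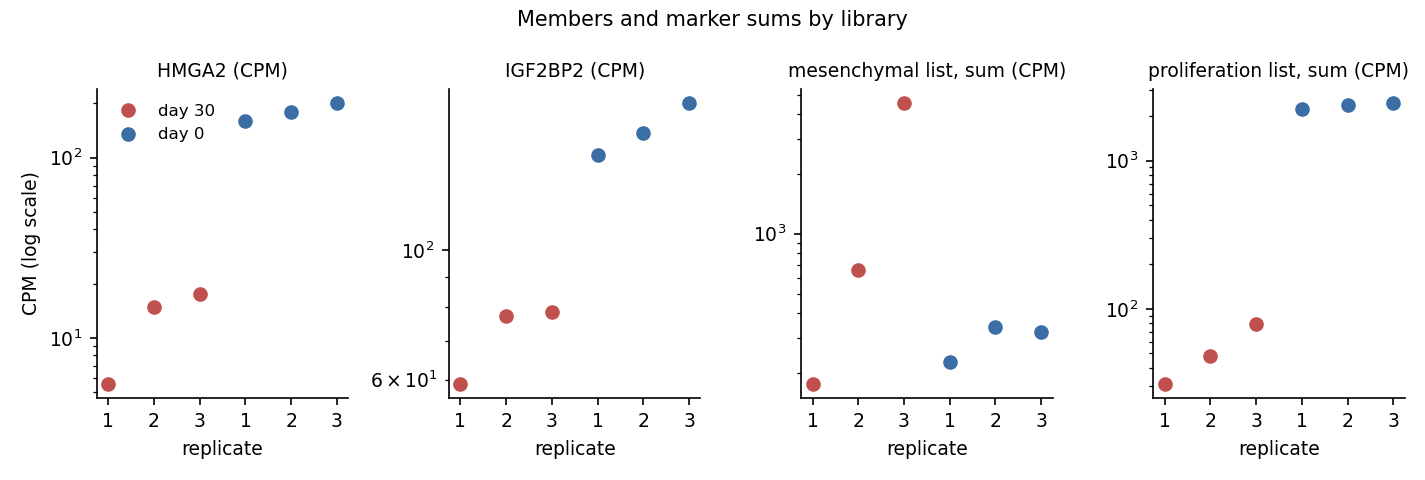
Levels in CPM on a log scale of HMGA2 and IGF2BP2 and summed CPM of the mesenchymal and proliferation marker lists, 1 point per library, day 30 replicates 1 to 3 left of day 0 replicates 1 to 3. In all 4 panels day 30 replicate 1 is the lowest and replicate 3 the highest of day 30, and the mesenchymal panel is the one in which the days overlap.

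Of 25 genes tested that make, hold back or remove let-7, 13 were lower and 8 higher on day 30, and 4 did not pass, beside 36.8% lower and 39.8% higher of all genes tested. The list had a median log2 fold change of -0.54, against 0.08 for all genes. The largest fall was that of L1TD1, an RNA-binding partner of LIN28 in human embryonic stem cells, which had 1.13, 0.151 and 1.7 CPM in day 30 replicates 1, 2 and 3, against 908, 1183 and 1020 CPM in day 0 replicates 1, 2 and 3 (log2 fold change -10.30 ± 0.39 SE, edgeR adjusted p = 3.57e-09). The day 30 values of L1TD1 rest on 22 counts in all, 2 of them in replicate 2, and without that library its log2 fold change was -9.56. L1TD1 passed the filter on low counts through its day 0 libraries alone, so its direction was in effect fixed in advance. HNRNPA1, which binds the loop of the let-7a-1 primary transcript, fell by 2.65 ± 0.12 SE on the log2 scale; it has many processed pseudogenes with which reads may have been shared. METTL1, an RNA methyltransferase described as acting on let-7, fell by 1.87 ± 0.22 SE.

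The rises in that list were AGO4 (log2 fold change 1.73 ± 0.11 SE), ZSWIM8 (1.65 ± 0.12 SE), the receptor of target-directed miRNA decay, and AGO3 (1.33 ± 0.11 SE), as the 3 largest. The other Argonaute genes went the other way: AGO1 fell by 1.36 ± 0.10 SE and AGO2 fell by 0.72 ± 0.11 SE. TUT4, a uridylyl transferase that tails LIN28-bound precursors, had 170, 180 and 189 CPM in day 30 replicates 1, 2 and 3, against 94, 91.2 and 85.5 CPM in day 0 replicates 1, 2 and 3, and was higher by 0.99 ± 0.10 SE (edgeR adjusted p = 6.86e-06). TUT7, its relative, averaged 53 ± 5.26 CPM on day 30 and 48.2 ± 3.75 CPM on day 0 (SD, n = 3 each) and did not pass (adjusted p = 0.32). TUT4 and DIS3L2, which act on the precursor after LIN28, had log2 fold changes of 0.99 each, while LIN28A and LIN28B had -7.85 and -2.70. The nuclease genes DROSHA and DICER1 gave -0.63 ± 0.11 SE and 0.60 ± 0.11 SE, and DGCR8, the partner of DROSHA, gave -0.13 ± 0.12 SE and did not pass (adjusted p = 0.33).

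Of 8 transcripts listed as let-7 hosts, 7 were found and tested, and 5 were higher, 1 lower and 1 not past the test, beside 39.8% higher and 36.8% lower of all genes tested. Their median log2 fold change was 2.01. In GENCODE 29, 6 of the 7 hold a let-7 hairpin, and MIRLET7A1HG, the lower one, holds none. MIR100HG, which holds MIRLET7A2, had 148, 130 and 144 CPM in day 30 replicates 1, 2 and 3, against 0.892, 4.36 and 2.89 CPM in day 0 replicates 1, 2 and 3 (log2 fold change 5.70 ± 0.30 SE, edgeR adjusted p = 3.49e-08). MIR99AHG, which holds MIRLET7C, had 10.5, 8.8 and 27 CPM in day 30 replicates 1, 2 and 3, against 0.255, 0.145 and 0.492 CPM in day 0 replicates 1, 2 and 3 (log2 fold change 5.54 ± 0.63 SE, edgeR adjusted p = 1.37e-05). The day 0 values rest on 60.5 counts of MIR100HG and 7 counts of MIR99AHG. MIR99AHG passed the filter on low counts through its day 30 libraries alone. Its direction was thus in effect fixed in advance, though it is among the 5 higher hosts and in their median. MIR99AHG was highest in day 30 replicate 3, the library with the high mesenchymal markers, and without it the log2 fold change was 4.94. MIRLET7IHG, with MIRLET7I, was higher by 2.22 ± 0.20 SE, SPACA6, with MIRLET7E, by 2.01 ± 0.28 SE and WDR82, with MIRLET7G, by 0.36 ± 0.14 SE. WDR82 (edgeR adjusted p = 0.0329) had overlapping ranges and did not pass without day 0 replicate 1 or 2 (adjusted p = 0.139 and 0.124) or without day 30 replicate 1 or 2 (adjusted p = 0.144 and 0.0933). HUWE1, which holds MIRLET7F2 and MIR98, gave -0.13 ± 0.11 SE (adjusted p = 0.304).

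MIRLET7A1HG, which as annotated lies between MIRLET7F1 and MIRLET7D on chromosome 9 and holds neither, had 13.2, 12.9 and 14.3 CPM in day 30 replicates 1, 2 and 3, against 22.2, 19 and 16.1 CPM in day 0 replicates 1, 2 and 3 (log2 fold change -0.50 ± 0.16 SE, edgeR adjusted p = 0.0164). It did not pass with scaling by total counts (adjusted p = 0.0594) or without day 30 replicate 2 (adjusted p = 0.0678). Counts of a host do not measure how many hairpins were cut from it.

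Of 32 other genes described in the literature as let-7 targets, all tested, 17 were lower, 9 were higher and 6 did not pass, beside 36.8% lower and 39.8% higher of all genes tested. Their median log2 fold change was -0.66, against 0.08 for all genes. NR6A1, a nuclear receptor of germ and embryonic cells, had 16.7, 19.3 and 17.9 CPM in day 30 replicates 1, 2 and 3, against 195, 170 and 186 CPM in day 0 replicates 1, 2 and 3 (log2 fold change -3.35 ± 0.12 SE, edgeR adjusted p = 2.67e-09). The proto-oncogenes MYCN (-3.08 ± 0.16 SE) and PLAG1 (-3.04 ± 0.21 SE) came next. ACVR1C, an activin receptor, was higher on day 30 at 32.2, 35.6 and 30.8 CPM in replicates 1, 2 and 3, against 1.53, 2.18 and 1.72 CPM in day 0 replicates 1, 2 and 3 (log2 fold change 4.18 ± 0.19 SE, edgeR adjusted p = 1.13e-08). PRTG, a cell adhesion protein of the early neural tube, and PBX3, a homeodomain factor, were higher by 1.73 ± 0.29 SE and 1.55 ± 0.13 SE. Of 21 targets with a CTACCTC in the 3′ UTR of the transcript used, 9 were lower and 8 higher (median log2 fold change 0.02), and of 10 without one, 7 were lower and 1 higher (median -0.78). MYC was left out, since the transcript chosen for it has no annotated 3′ UTR. This split was made after the values were seen and has no test.

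**Figure D5:**
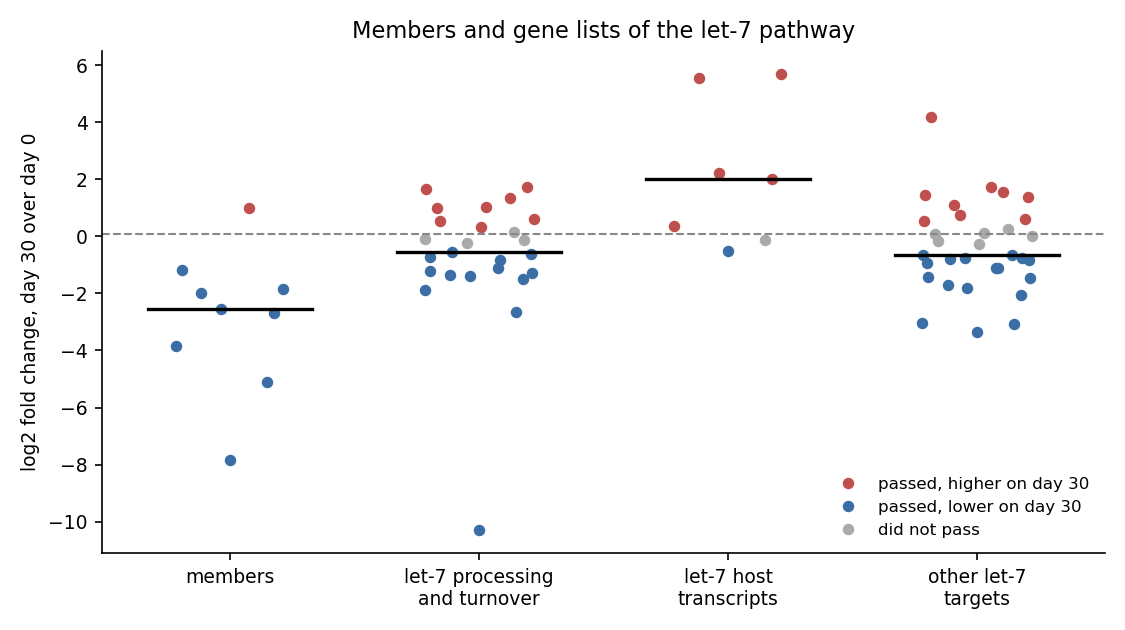
The log2 fold change of day 30 over day 0 for the 9 tested members, the 25 let-7 processing and turnover genes, the 7 host transcripts and the 32 other let-7 targets, 1 point per gene coloured by its edgeR call at an adjusted p of 0.05. Bars mark medians of -2.53, -0.54, 2.01 and -0.66, and the dashed line marks the median of all genes, 0.08.

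Of 11 listed relatives of the members, 10 were tested, and 7 were lower and 3 higher on day 30, beside 36.8% lower and 39.8% higher of all genes tested. HMGA1, the paralog of HMGA2, fell to 64.4, 61.3 and 49 CPM in day 30 replicates 1, 2 and 3, against 876, 874 and 1022 CPM in day 0 replicates 1, 2 and 3 (log2 fold change -3.98 ± 0.15 SE, edgeR adjusted p = 2.92e-09). YBX3, a cold-shock domain protein like LIN28A and LIN28B, fell by 4.54 ± 0.34 SE and ARID3A, the paralog of ARID3B, by 2.05 ± 0.13 SE on the log2 scale. The NHL-domain relatives of TRIM71 were the 3 that rose, TRIM3 by 2.03 ± 0.21 SE, TRIM2 by 2.00 ± 0.12 SE and TRIM32 by 0.53 ± 0.13 SE. DIS3L and DIS3, exonucleases related to DIS3L2, had log2 fold changes of -0.44 ± 0.14 SE and -0.40 ± 0.16 SE. DIS3 (edgeR adjusted p = 0.0413) had overlapping ranges and did not pass with scaling by total counts (adjusted p = 0.0746), without day 0 replicate 2 or 3 (0.102 and 0.117) or without day 30 replicate 3 (0.141).

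Of 6 tested of the 8 listed mRNAs that IGF2BP proteins are known to bind, 3 were higher, 2 lower and 1 did not pass, shares near the 39.8% higher and 36.8% lower of all genes tested. Their median log2 fold change was 0.00. ACTB, whose zipcode IGF2BP1 binds, and MYC had log2 fold changes of -1.44 ± 0.13 SE and -0.77 ± 0.12 SE, and MAPK4 (2.72 ± 0.23 SE) and BTRC (1.06 ± 0.11 SE) were among the higher ones. CD44 averaged 30.2 ± 13.9 CPM on day 30 and 48.1 ± 19 CPM on day 0 (SD, n = 3 each) and did not pass (edgeR adjusted p = 0.0852). CD44 passed as lower with no filter on low counts (adjusted p = 5.04e-05), without day 0 replicate 1 (0.0138) and without day 30 replicate 3 (0.0115). IGF2, which gave the family its name, averaged 1.56 ± 1.54 CPM in day 30 libraries and 1.1 ± 0.878 CPM in day 0 libraries and was not tested, and H19 was at 0 in all libraries. Of 5 genes described as repressed by TRIM71 in mouse or human cells, E2F7 (-3.28 ± 0.18 SE) and RBL1 (-1.74 ± 0.18 SE) were lower, EGR1 (1.14 ± 0.30 SE) and RBL2 (0.40 ± 0.11 SE) were higher, and CDKN1A, the cell cycle inhibitor p21, fell by 0.54 ± 0.20 SE on the log2 scale (edgeR adjusted p = 0.0296). CDKN1A did not pass with scaling by total counts (adjusted p = 0.0795), without day 0 replicate 2 (0.056) or without day 0 replicate 3 (0.0519).

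The genes whose pattern over the 6 libraries came closest to that of each LIN28 paralog were found by the Euclidean distance between log2 CPM values centred on each gene's mean. For LIN28A they were ENSG00000288595, which the tables used do not name (distance 0.33, 0 CPM in every day 30 library and 57 ± 7.92 CPM on day 0), ESRP1, an epithelial splicing regulator (0.51), and LINC02700, a long non-coding RNA (0.69). A prior count of 2 enters these log2 CPM values and sets those of genes at or near 0 on day 30, such as ENSG00000288595 and LINC02700, so their distances depend on it. ESRP1 averaged 0.69 ± 0.129 CPM on day 30 and 160 ± 14.8 CPM on day 0 (SD, n = 3 each), a log2 fold change of -7.80. For LIN28B they were the ribosomal protein genes RPL27A, RPL7 and RPS24, each at a distance of 0.17, with log2 fold changes of -2.70, -2.70 and -2.62. Ribosomal protein genes have many processed pseudogenes, with which reads may have been shared. These likenesses are descriptions over 6 libraries in which the contrast between the days takes most of the variation.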

How the data were processed

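RNA of 6 libraries, 3 of day 30 and 3 of day 0, was isolated with TRIzol, and ribosomal RNA was removed before a TruSeq stranded total RNA kit was applied, per the labels' protocols. The deposited values are expected counts per gene, with 83.7% of values above 0 whole. Per the submitters' processing notes, FastQC 0.11.9 was run and hg38 was used. Aligner, counter, annotation and strand setting were not given in the sources used here, nor was how fractions of reads arose. Raw counts had been planned for, so each value was rounded to the nearest whole number before testing. Columns not used numbered 0.

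Symbols came from a separate list of gene names by Ensembl ID. Gene positions and exon lengths came from GENCODE 29 (hg38), and miRNA sequences from RefSeq (GRCh38.p14). The end of the MIRLET7F2 loop was read from its hairpin because its 3p arm is not listed. The transcript searched for seed matches was the APPRIS principal one, then CCDS, then the longest. Like lengths were 0.8 to 1.25 times the 3′ UTR. Genes were filtered with filterByExpr, scaled by TMM and tested with edgeR 4.0.16 (quasi-likelihood, Benjamini-Hochberg over 18040 genes, 0.05). The SE is the log2 fold change over the root of F. CPM are deposited values over TMM-scaled library sizes. Ratios and shares within a library used a pseudocount of 0.5 counts and exact permutation tests (SciPy 1.17.1). The fit was tested on simulated data. Alternatives were DESeq2 1.42.0 (size factors, and its own test), limma 3.58.1 voom, total counts, no filter, a stricter filter, rounding down, a replicate block and each library left out.

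The members and lists were chosen with earlier results of these data known. Named genes were all members, the 3 largest falls and rises past the test in each list, and the 3 tested genes most like LIN28A and LIN28B. AGO1, AGO2, TUT4, TUT7, DROSHA, DICER1, DGCR8, SPACA6, WDR82, HUWE1, DIS3, DIS3L, CD44, IGF2, H19, SLC1A2, SOX9, GJA1, POMC, ISL1, NKX2-1, AGRP and NPY were named besides, after their values were seen. MIRLET7DHG, a listed host, was not matched. DICER1, MYC and ARID3A are in 2 lists each. The values of 1 gene that the rule names are not reported here.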

Additional observations from a re-analysis of the deposited data

How the results depend on the processing

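Under the 14 alternatives of the fit, the 9 tested members kept direction and call, with log2 fold changes of -7.99 to -7.76 for LIN28A, -2.79 to -2.60 for LIN28B, -4.08 to -3.50 for HMGA2, -5.16 to -5.01 for TRIM71 and 0.86 to 1.09 for DIS3L2. Scaling by total counts moved the median of all genes by 0.09 on the log2 scale. The count of lower host transcripts was 0 with total counts and without day 30 replicate 2, against 1 in the report; no result reversed. The cause was not tested. The LIN28B to LIN28A log2 difference was 5.00 to 5.27 with a library left out, where the smallest exact permutation p is 0.2. Same-numbered libraries deviated with correlations of 0.07, -0.00 and -0.05, and other-numbered ones with correlations of -0.13 to 0.14. With 3 libraries per day this cannot tell whether the same numbers share a culture or batch. With a replicate block, 6921 genes were higher and 6415 lower, and 8 members lower and 1 higher as before; WDR82 (adjusted p = 0.0702) and DIS3 (0.0539) did not pass and CD44 (0.00165) passed; the log2 difference of the LIN28 ratio was 5.14, where the smallest p of a paired test is 0.25. The 18 to 21.3 counts per day of MIRLET7BHG limit what depth can show.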
